A study of Mus musculus with 4 samples.

Results

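Enzymes that write, read out and erase repressive chromatin marks were examined in muscle stem cells (MuSCs) of overloaded and sham-operated plantaris muscle. The 10 genes were chosen by name from the 19353 genes of the count file, and all 10 were present. They were the Polycomb repressive complex 2 (PRC2) genes Ezh1, Ezh2, Eed and Suz12, the DNA methylation genes Dnmt1, Dnmt3a and Uhrf1, and the DNA demethylation genes Tet1, Tet2 and Tet3. Of these, Dnmt1 and Uhrf1 were higher after overload, Dnmt3a was a smaller share of the transcripts, and no PRC2 or Tet gene passed the test with TMM scaling, all 4 libraries and no replicate block.

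PRC2 methylates lysine 27 of histone H3, a mark of silenced developmental genes. Ezh1 and Ezh2 are its alternative catalytic subunits, while Eed and Suz12 are needed for the complex to form and act. DNA methylation is laid down afresh by Dnmt3a, is copied onto the daughter strand by Dnmt1, which Uhrf1 guides to hemimethylated sites behind the replication fork, and is oxidized by the Tet enzymes as the first step of its removal. In MuSCs, Ezh2 and Dnmt3a are known for their part in keeping the stem cells able to divide and to remain committed to muscle.

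MuSCs came from Pax7-CreERT2:Rosa-YFP mice, in which tamoxifen activates a Cre recombinase made in Pax7-expressing cells and thereby switches on a yellow fluorescent protein (YFP). All mice carried both alleles, and the ages of the mice used were not given in the sources used here. In the overloaded group the distal tendons of the gastrocnemius and soleus muscles were cut (tenotomy), which loads the plantaris, and in the sham group only the skin was cut. YFP-positive cells were sorted at 4 days into tubes of 100 cells, and 2 CEL-Seq2 libraries were made per group. No source used here says whether the 2 tubes of a group were filled from separate animals, so p-values measure the spread between these libraries, which may be technical. YFP marks every descendant of a cell that once expressed Pax7, so the sort did not select by current Pax7.

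The sham libraries held 269683 and 260488 UMIs (unique molecular identifiers, which mark each captured transcript once), and the overloaded libraries held 387955 and 483528. Per sorted cell this was 2697 and 2605 UMIs in the sham libraries and 3880 and 4835 in the overloaded libraries. Levels are given as CPM, UMIs scaled to a common library total by the TMM method, so that each level is a share of the RNA captured in that tube. Because CEL-Seq2 counts the 3′ end of each molecule once, whatever its length, levels of different genes could be compared without a length correction. A count of 3 UMIs corresponded to 13.1 and 13.6 CPM in the sham libraries and to 7.80 and 6.08 CPM in the overloaded libraries. In samples of this kind, fewer cells that express a gene and less RNA of it per cell cannot be told apart.

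The labelled cell type was checked against marker genes. All 8 MuSC markers were detected, and their summed level was 4492 and 4168 CPM in the sham libraries and 3565 and 3260 CPM in the overloaded libraries, with Myf5 the most abundant. All 8 were tested, and 2 were higher and 4 lower. Over all 7228 genes tested, 25.8% were called higher and 26.3% lower, against which this and the following marker counts are to be read. Summed leukocyte markers were 8.71 and 27.2 CPM in the sham libraries and 185 and 365 CPM in the overloaded libraries, and 7 of the 10, Lyz2 among them, were at 0 in both sham libraries. Of these markers 2 were tested, and both were higher. Lyz2, the most abundant of these, had 0, 0, 17 and 38 UMIs in sham 1, sham 2, overloaded 1 and overloaded 2. Genes listed as markers of other cell types were also counted in every library. Whether MuSCs themselves express them was not tested. Fibro-adipogenic markers (6 genes, led by Col15a1) summed to 1637 and 1635 CPM in the sham libraries and to 822 and 838 CPM after overload, and of the 4 tested 1 was higher and 3 were lower. Mural markers (6 genes, led by Acta2) summed to 753 and 689 CPM and to 1175 and 1318 CPM, respectively, and of the 3 tested 2 were higher and 1 was lower. A single gene carried much of each of these sums. Col15a1 had 151, 136, 77 and 115 of the 376, 361, 316 and 414 fibro-adipogenic UMIs in sham 1, sham 2, overloaded 1 and overloaded 2. Acta2 had 115, 109, 356 and 493 of the 173, 152, 452 and 651 mural UMIs. Endothelial markers (5 genes, led by Cdh5) summed to 39.2 and 13.6 CPM and to 75.4 and 60.8 CPM, and 0 of the 5 passed the filter.

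The clearest difference among the 10 genes was in the maintenance arm of DNA methylation. Dnmt1, the methyltransferase that copies methylation at replication (ENSMUSG00000004099, GRCm38 chr9:20907209-20959888, minus strand), had 8 and 8 UMIs in the sham libraries and 44 and 62 in the overloaded libraries. Normalized, these were 35.5 ± 1.0 CPM in sham and 120 ± 7.88 CPM in overloaded MuSCs (SD, n = 2 each). The groups did not overlap. The sham SD was under the level of 1 UMI (4.35 and 4.53 CPM), because both sham libraries held 8 UMIs. It is therefore no measure of the counting error. The log2 fold change was 1.75 (SE 0.34, 95% CI 1.03 to 2.47), with an adjusted p of 5.98e-04 in the quasi-likelihood test of edgeR (Benjamini-Hochberg adjustment over all genes tested), which is a 3.36-fold rise. Counted per tube of 100 cells, without any scaling, Dnmt1 went from 16 to 106 UMIs over both libraries of each group, a ratio of 6.63. Dnmt1 passed the filter on low counts through the overloaded libraries alone, and without that filter its log2 fold change was 1.83.

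Uhrf1, which recognizes hemimethylated DNA and brings Dnmt1 to it (ENSMUSG00000001228, chr17:56303321-56323486, plus strand), had 2 and 0 UMIs in the sham libraries and 24 and 31 in the overloaded libraries. Both overloaded libraries stood at nearly the same level, 62.4 and 62.8 CPM, while sham 1 stood at 8.71 CPM and sham 2 at 0. From 2 and 55 UMIs in the groups, the ratio after scaling was 14.1, with an exact binomial 95% interval of 3.72 to 119 that covers counting error only. The fitted log2 fold change was 3.71 (SE 0.68) with an edgeR adjusted p of 3.35e-04, but its size depended on the sham libraries. It was 2.76 without sham 2 and 7.52 without sham 1, which held both sham UMIs. Uhrf1 also passed the filter on low counts through the overloaded libraries alone, and without that filter its log2 fold change was 3.79. Together Dnmt1 and Uhrf1 amounted to 43.5 and 36.2 CPM in the sham libraries and to 177 and 188 CPM in the overloaded libraries. The summed leukocyte markers were 185 and 365 CPM in the same libraries. Leukocyte markers were thus counted in these libraries although the cells were sorted for YFP, which marks descendants of Pax7-expressing cells. The part of leukocyte RNA in the rise of Dnmt1 and Uhrf1 was not tested.

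The start regions of both genes are shown because they moved together and share a motif. The letters of E2F-type sites, which are bound by the E2F factors of the cell cycle, were searched on both strands as TTTCGCGC, TTTGGCGC, TTTCCCGC and TTTGCCGC in RefSeq windows (GRCm38.p6) of 300 bases around each annotated start. All 10 genes had a window. At least 1 match was found for 4 of the 10 genes (Dnmt1, Uhrf1, Ezh2 and Suz12), against 2.27% of the 32851 windows of all genes and 5.05% of the 5543 tested genes that had a window. Each motif holds a CpG, and the matched windows of these genes held 31 to 41 CpGs against a median of 7 over all windows. The contrast was not adjusted for this. The stretches before the start that hold a match are printed 5′ to 3′ on the gene's strand, with the match, or its reverse complement in the case of Dnmt1, in capitals:
Dnmt1 (chr9:20952795-20952873, minus strand): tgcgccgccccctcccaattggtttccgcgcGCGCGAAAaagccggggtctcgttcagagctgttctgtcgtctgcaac
Uhrf1 (chr17:56304088-56304175, plus strand): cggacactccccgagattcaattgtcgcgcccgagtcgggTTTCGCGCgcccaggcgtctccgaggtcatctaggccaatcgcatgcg
Suz12 (chr11:79992856-79992934, plus strand): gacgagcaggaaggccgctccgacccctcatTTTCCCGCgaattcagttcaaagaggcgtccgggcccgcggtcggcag

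Dnmt1 and Uhrf1 held the same motif, TTTCGCGC, which occurs in 0.323% of all windows. Counted from the start, it began at position -219 in Dnmt1, on the opposite strand, and at -185 in Uhrf1. In both genes this start is not the only one annotated and lies inside the gene as annotated. Dnmt1 held a further match, TTTGGCGC, after the start, as did Ezh2. A match describes letters in a window and not binding, and Suz12 and Ezh2 held a match but were not called with TMM scaling and all 4 libraries. Dnmt3a, which has windows at 3 RefSeq starts, is shown for contrast with the 100 bases before the first of these, where no match was found:
Dnmt3a (chr12:3806880-3806979, plus strand): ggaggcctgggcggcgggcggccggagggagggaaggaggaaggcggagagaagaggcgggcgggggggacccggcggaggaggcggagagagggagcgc

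Dnmt3a, the de novo methyltransferase (ENSMUSG00000020661, chr12:3806007-3914443, plus strand), had 44 and 40 UMIs in the sham libraries and 49 and 39 in the overloaded libraries. The UMIs counted per tube were thus nearly the same, 84 against 88 over the groups, while the overloaded tubes held more UMIs in total. On the CPM scale Dnmt3a was 186 ± 7.30 in sham and 103 ± 34.2 in overloaded MuSCs (SD, n = 2 each), and the groups did not overlap. The log2 fold change was -0.88 (SE 0.26, 95% CI -1.42 to -0.34), with an edgeR adjusted p of 0.0099. Per tube it was 0.07 with an edgeR adjusted p of 0.864. With library sizes alone, which give a plain share, it was -0.61 (edgeR adjusted p 0.054). The fall was thus in the share of the transcripts and not in the UMIs counted per tube. UMIs count captured molecules, and the fraction captured in each tube is not known. The call also rested on overloaded 2, without which the log2 fold change was -0.51 (edgeR adjusted p 0.181), and the DESeq2 adjusted p was 0.136.

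The balance of Dnmt1 to Dnmt3a within a library does not depend on any scaling between libraries. Dnmt1 made up 15.4% (exact 95% binomial interval 6.88 to 28.1) and 16.7% (7.48 to 30.2) of the UMIs of this pair in the sham libraries. In the overloaded libraries it made up 47.3% (36.9 to 57.9) and 61.4% (51.2 to 70.9). The intervals of the groups did not overlap, whereas those within a group did. This share was chosen after its values were seen, and its intervals cover counting error only.

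**Figure D1:**
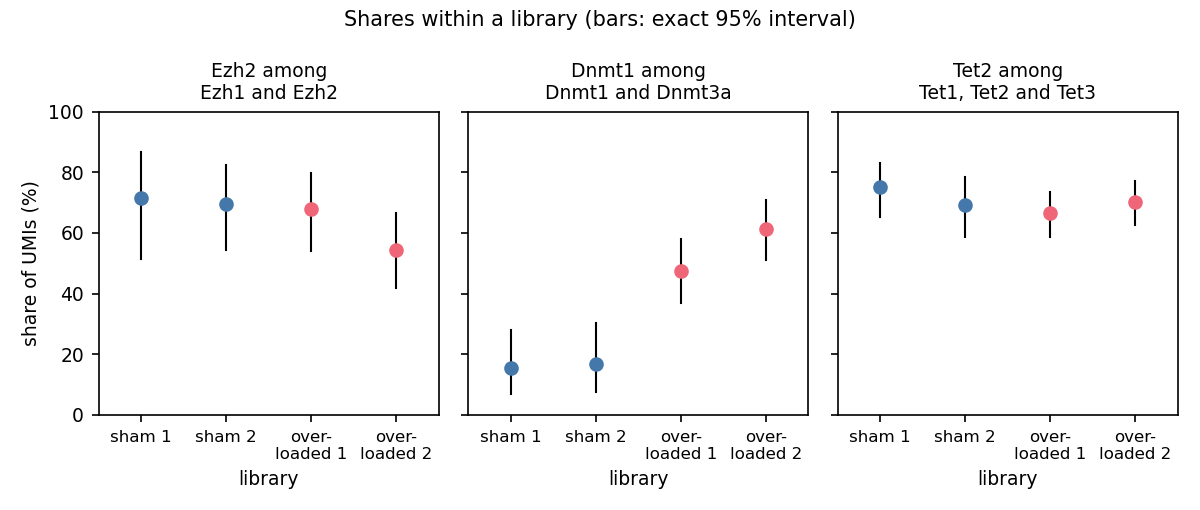
Share of UMIs (%, y axis) of Ezh2 among Ezh1 and Ezh2, of Dnmt1 among Dnmt1 and Dnmt3a, and of Tet2 among the Tet genes, in each of the 4 libraries (x axis; blue points sham, red points overloaded, bars exact 95% binomial intervals). The Dnmt1 share was 15.4% and 16.7% in sham and 47.3% and 61.4% in overloaded libraries, while the intervals of the other shares overlapped between all libraries.

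The summed level of the PRC2 core overlapped between the groups on the CPM scale and was higher per tube in both overloaded libraries. Its 4 genes summed to 300 and 399 CPM in the sham libraries and to 322 and 373 CPM in the overloaded libraries, so that both overloaded values lay between the sham values. Without scaling the sum was 69 and 88 UMIs per tube in sham and 124 and 184 UMIs per tube after overload, with no overlap. Ezh2, the catalytic subunit usually linked to dividing cells (chr6:47530139-47595341, minus strand), had 20, 32, 38 and 37 UMIs in sham 1, sham 2, overloaded 1 and overloaded 2. These were 116 ± 40.9 CPM and 86.9 ± 16.9 CPM (SD, n = 2 each), and the groups overlapped. The log2 fold change was -0.43 (SE 0.30, 95% CI -1.06 to 0.21; edgeR adjusted p 0.263). Without sham 1, which had the lower of the sham values, it was -0.79 with an edgeR adjusted p of 0.062, a call that rested on the single sham library left, and without sham 2 it was -0.06 (edgeR adjusted p 0.925).

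Ezh1, the catalytic subunit usually linked to resting cells (chr11:101191115-101226463, minus strand), had 8, 14, 18 and 31 UMIs, which were 49.1 ± 20.2 CPM in sham and 54.8 ± 11.3 CPM in overloaded MuSCs. The overloaded values lay within the sham range, and the log2 fold change was 0.18 (SE 0.40, 95% CI -0.65 to 1.02; edgeR adjusted p 0.737). Ezh2 was therefore the more abundant of the pair in every library, with 71.4% (exact 95% binomial interval 51.3 to 86.8) and 69.6% (54.2 to 82.3) of their UMIs in the sham libraries. In the overloaded libraries the share was 67.9% (54.0 to 79.7) and 54.4% (41.9 to 66.5). The mean share was 70.5% ± 1.32 in sham and 61.1% ± 9.51 in overloaded MuSCs (SD, n = 2 each). Both overloaded shares were below both sham shares. An exact two-sided permutation test gave p = 0.333, the smallest that 2 libraries against 2 allow, so this design cannot show a difference by that test, and the binomial intervals of all 4 libraries overlapped.

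Eed, the subunit that binds the methylated histone tail (chr7:89954654-89980983, minus strand), had 9 and 12 UMIs in the sham libraries and 22 and 50 in the overloaded libraries. Its level was 46.8 ± 10.7 CPM in sham and 79.2 ± 31.1 CPM in overloaded MuSCs, and the groups did not overlap, although overloaded 1 (57.2 CPM) was close to sham 2 (54.4 CPM). The log2 fold change was 0.79 (SE 0.39, 95% CI -0.04 to 1.62) and missed the threshold of 0.1 with an edgeR adjusted p of 0.112. It passed with library sizes alone (log2 fold change 1.07, edgeR adjusted p 0.029) and per tube (1.77, adjusted p 0.0042). Without overloaded 2, which had the higher value, the log2 fold change was 0.33 (edgeR adjusted p 0.630), and without overloaded 1 it was 1.13 (edgeR adjusted p 0.018). With upper-quartile factors it was 0.89 (edgeR adjusted p 0.077), and with offsets for abundance it was 0.63 (edgeR adjusted p 0.211). With the replicate number as a block it was 0.75 and passed narrowly (edgeR adjusted p 0.098). Suz12, the scaffold subunit (chr11:79993106-80034123, plus strand), had 32, 30, 46 and 66 UMIs, at 138 ± 2.40 CPM in sham and 127 ± 9.93 CPM in overloaded MuSCs, and both overloaded values lay just below the sham values. Its log2 fold change was -0.11 (SE 0.23, 95% CI -0.61 to 0.38; edgeR adjusted p 0.725), the narrowest interval among the PRC2 genes.

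Among the Tet genes, Tet2 was the most abundant in every library. Tet2 (chr3:133463679-133545139, minus strand) had 75 and 63 UMIs in the sham libraries and 111 and 116 in the overloaded libraries, at 306 ± 29.0 CPM and 262 ± 38.0 CPM. The groups overlapped, and the log2 fold change was -0.24 (SE 0.19, 95% CI -0.63 to 0.15; edgeR adjusted p 0.318). Genes in the ninth of 10 abundance groups, where Tet2 lies, had a median log2 fold change of -0.28. Tet3 (chr6:83362373-83459084, minus strand) had 23, 25, 52 and 47 UMIs, at 107 ± 9.29 CPM and 115 ± 28.3 CPM, with a log2 fold change of 0.09 (SE 0.28, 95% CI -0.49 to 0.67; edgeR adjusted p 0.815). Tet1, which is best known from pluripotent and germ cells (chr10:62804570-62908996, minus strand), had 2, 3, 4 and 2 UMIs and was too low to be tested.

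No difference in the proportions of the Tet genes was detectable. Tet2 made up 75.0% (exact 95% binomial interval 65.3 to 83.1) and 69.2% (58.7 to 78.5) of all Tet UMIs in the sham libraries, and 66.5% (58.8 to 73.6) and 70.3% (62.7 to 77.2) in the overloaded libraries. All 4 intervals overlapped. The summed Tet level was 435 and 412 CPM in sham and 434 and 334 CPM after overload, and overloaded 2 was the lowest of the libraries.

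**Figure D2:**
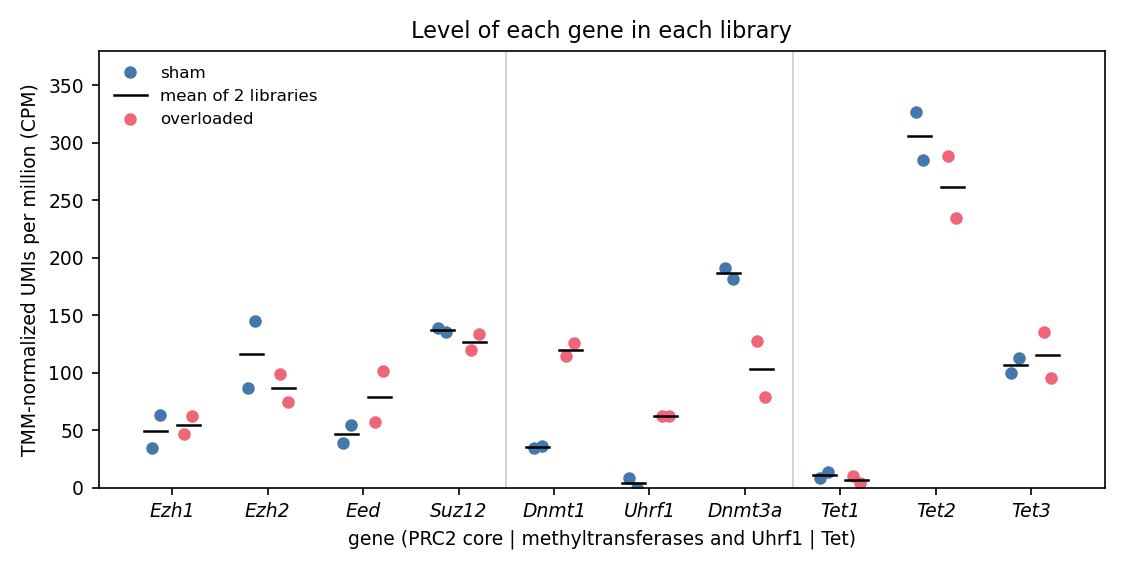
TMM-normalized level (CPM, linear y axis) of each of the 10 genes (x axis, grouped as PRC2 core, methyltransferases with Uhrf1, and Tet genes) in each library, with sham points in blue, overloaded points in red and black lines at the mean of 2 libraries. Dnmt1 rose from a mean of 35.5 to 120 CPM and Uhrf1 from 4.35 to 62.6 CPM, while Tet2 was highest in both groups.

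Of the 10 genes, 9 passed the filter on low counts, and Dnmt1, Uhrf1 and Ezh1 passed it through the overloaded libraries alone. At an adjusted p of 0.1, 2 of the 9 were higher (Dnmt1 and Uhrf1), 1 was lower (Dnmt3a) and 6 passed in neither direction. Both higher genes passed the filter through the overloaded libraries alone, so the filter bears on the higher count. With no filter on low counts both were again called higher. Across all 7228 genes tested, 52.1% were called, 25.8% higher and 26.3% lower, so the share called among these genes was not above that of the series. Normalized values of the groups did not overlap for 5 of the 9, 3 of them higher (Dnmt1, Uhrf1 and Eed) and 2 lower (Dnmt3a and Suz12), against 72.9% of all tested genes in either direction and 37.5% higher. The direction of many calls depended on scaling, because the overloaded tubes held more UMIs. Without scaling, per tube, the median log2 fold change of all genes was 1.01 in place of 0.05, and 93.1% of all calls were higher in place of 49.6%. With library sizes alone the median was 0.33 and 66.6% of calls were higher. Per tube, 7 of the 9 genes were called higher (Dnmt1, Uhrf1, Eed, Ezh1, Suz12, Tet2 and Tet3) and 0 lower. Dnmt1 (log2 fold change 2.71) and Uhrf1 (4.62) were above the per-tube median of all genes by 1 unit or more, while Suz12 (0.85), Tet2 (0.72), Ezh2 (0.53) and Dnmt3a (0.07) were below it.

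**Figure D3:**
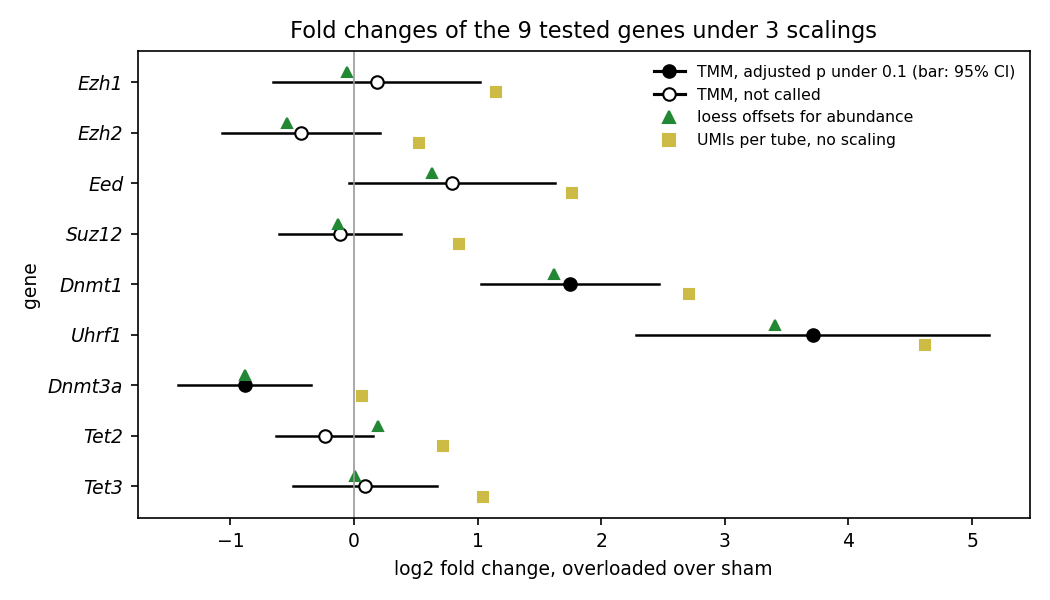
Log2 fold change, overloaded over sham (x axis), of the 9 tested genes (y axis) with TMM scaling (circles, filled where the adjusted p was under 0.1, with bars for the 95% CI), with offsets that remove the dependence on abundance (green triangles) and per tube without scaling (yellow squares). Dnmt1 and Uhrf1 were above 0 under each, whereas Dnmt3a was at -0.88 with TMM and at 0.07 per tube.

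The order of the levels differed between the groups mainly through Dnmt1, Uhrf1 and Dnmt3a. In sham MuSCs the order by mean CPM was Tet2, Dnmt3a, Suz12, Ezh2, Tet3, Ezh1, Eed, Dnmt1, Tet1 and Uhrf1. Neighbours whose libraries overlapped were Suz12 and Ezh2, Ezh2 and Tet3, Ezh1 and Eed, and Tet1 and Uhrf1. In overloaded MuSCs the order was Tet2, Suz12, Dnmt1, Tet3, Dnmt3a, Ezh2, Eed, Uhrf1, Ezh1 and Tet1. There only Tet2 was clear of Suz12 and only Ezh1 of Tet1, and all genes between them overlapped with their neighbour. Summed over all 10 genes, the level was 971 and 1028 CPM in the sham libraries and 1061 and 974 CPM in the overloaded libraries, with no separation of the groups. Per tube, without scaling, the sum was 223 and 227 UMIs in the sham libraries and 408 and 481 UMIs in the overloaded libraries, where the groups did not overlap.

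The other subunits and partners of these enzymes were then counted from lists that were chosen with earlier results of these data known and that leave out some genes not reported here. The counts are to be read against the 25.8% of all tested genes called higher and the 26.3% called lower. PRC2 accessory subunits, which guide the core complex to chromatin, were called lower in 2 of the 5 tested (of 8 listed) and higher in 0 after TMM scaling. This was against 52.1% of all tested genes called, with a median log2 fold change of -0.35 against 0.05 for all. Per tube the direction turned, with 4 of the 5 called higher and 0 lower, against 4481 and 331 of all 7228 genes. Jarid2, which helps to recruit PRC2, had 47, 25, 26 and 40 UMIs in sham 1, sham 2, overloaded 1 and overloaded 2, and its log2 fold change was -1.09 (SE 0.29, edgeR adjusted p 0.0063). The overloaded values lay below both sham values on the CPM scale, but without sham 1 the log2 fold change was -0.63 (edgeR adjusted p 0.197), and per tube it was -0.13. Rbbp7, a histone-binding subunit shared with other complexes, had 87, 95, 130 and 131 UMIs, with a log2 fold change of -0.43 (SE 0.18, edgeR adjusted p 0.061) that was 0.52 per tube (edgeR adjusted p 0.037). Its adjusted p was 0.312 with DESeq2 and 0.381 without overloaded 2. Rbbp7 was among the most abundant 10% of tested genes, whose median was -0.74, and with offsets for abundance it was at 0.12. Rbbp7 shares exonic bases with Txlng on the opposite strand, and the strand setting used in counting was not given in the sources used here.

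PRC1, the other Polycomb complex, ubiquitinates histone H2A and compacts chromatin, and most of its tested subunits were not called after TMM scaling. Of the 19 subunits counted 12 were tested, and 2 were higher, 1 lower and 9 not called (median log2 fold change 0.06), against 52.1% called in either direction among all genes tested. Per tube, 7 of the 12 were called higher and 0 lower, against 4481 and 331 of all 7228 genes. Pcgf3, a subunit of a variant form, had 23, 10, 60 and 91 UMIs (log2 fold change 1.22, SE 0.30, edgeR adjusted p 0.0032), with a log2 fold change of 0.73 without sham 2 and 1.88 without sham 1. Bmi1, the subunit known for self-renewal of stem cells, had 13, 14, 40 and 60 UMIs (0.92, SE 0.31, edgeR adjusted p 0.022), although its DESeq2 adjusted p was 0.229 and leaving out sham 1 or overloaded 2 gave edgeR adjusted p-values of 0.119 and 0.102. Both were higher in each overloaded library than in either sham library.

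Rnf2, the catalytic ubiquitin ligase of PRC1, had 53, 45, 46 and 63 UMIs and was lower on the CPM scale (-0.81, SE 0.21, edgeR adjusted p 0.0052), but not per tube (0.15), and its DESeq2 adjusted p was 0.116. It shares exonic bases with Trmt1l on the opposite strand. Some low subunits were seen in overloaded libraries alone. Cbx2 had 0, 0, 2 and 8 UMIs and Cbx8 had 0, 0, 4 and 5. Their mean levels after overload, 10.7 and 10.3 CPM, were under that of 3 UMIs in a sham library, so no fold is given.

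Among the enzymes that remove Polycomb marks, Kdm6b was called lower under all 16 other settings tried. All 7 listed genes were tested, and 1 was higher, 2 lower and 4 not called (median log2 fold change -0.09), against 52.1% of all genes called in either direction. Per tube, 5 were called higher and 1 lower, against 4481 and 331 of all 7228 genes. Kdm6b, a demethylase of lysine 27 of histone H3, had 325, 286, 234 and 197 UMIs, or 1355 ± 84.2 CPM in sham and 504 ± 148 CPM in overloaded MuSCs (SD, n = 2 each). It was lower in both overloaded libraries even by raw UMIs, and its log2 fold change was -1.44 (SE 0.19, edgeR adjusted p 1.35e-05) and -0.50 per tube (edgeR adjusted p 0.0099). Kdm6b was among the most abundant 10% of tested genes, whose median log2 fold change was -0.74. With offsets that remove this dependence on abundance it was at -0.46 (edgeR adjusted p 0.011). Its relative Kdm6a was not called (20, 33, 36 and 60 UMIs, log2 fold change -0.11). Usp16, which removes ubiquitin from histone H2A, had 45, 38, 44 and 38 UMIs (-0.97, SE 0.25, edgeR adjusted p 0.0050), while the log2 fold change per tube was -0.02. It shares exonic bases with Cct8 on the opposite strand. Asxl2, a partner of the H2A deubiquitinase Bap1, had 7, 8, 31 and 56 UMIs and was higher (1.55, SE 0.38, edgeR adjusted p 0.0036). It passed the filter through the overloaded libraries alone, so the filter bears on the single higher call of this list.

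Transcripts for the catalytic and regulatory subunits of the synthase of the methyl donor, S-adenosylmethionine, changed in opposite directions. Mat2a, the catalytic subunit, had 335, 290, 160 and 190 UMIs, or 1386 ± 102 CPM in sham and 400 ± 22.1 CPM in overloaded MuSCs. The groups were well apart by raw UMIs as well, and the log2 fold change was -1.79 (SE 0.16, edgeR adjusted p 3.95e-07) and -0.84 per tube. Mat2a was in the same abundance group as Kdm6b, and with offsets for abundance it was at -0.82 (edgeR adjusted p 7.48e-05). Mat2b, the regulatory subunit, had 8, 2, 48 and 46 UMIs, or 21.9 ± 18.2 CPM and 109 ± 22.4 CPM, with a log2 fold change of 2.26 (SE 0.45, edgeR adjusted p 7.38e-04) that was 1.58 without sham 2 and 3.49 without sham 1. These transcripts do not measure the donor itself.

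Of the 11 other DNA methylation writers and helpers, 10 were in the file and 7 were tested, with 3 higher (Mat2b, Hells and Cdca7), 1 lower (Mat2a) and 3 not called (median log2 fold change 0.33), against 25.8% of all genes called higher and 26.3% lower. Per tube, 6 of the 7 were called higher and 1 lower, against 4481 and 331 of all 7228 genes. Hells, a chromatin remodeler needed for DNA methylation, had 4, 2, 23 and 20 UMIs (1.85, SE 0.53, edgeR adjusted p 0.0092), though the adjusted p was 0.140 with DESeq2, 0.101 without sham 2 and 0.158 without overloaded 1, with 1 of the list then called higher. Cdca7, the partner of Hells, had 0, 1, 13 and 17 UMIs (3.73, SE 0.80, edgeR adjusted p 0.0012), and it no longer passed the filter when either overloaded library was left out or when counts were thinned. Of the 7 tested genes of this list 4 passed the filter through the overloaded libraries alone, the 3 higher ones among them, so the filter bears on the count. Dnmt3b, the second de novo methyltransferase, was too low to be tested, with 10, 4, 4 and 1 UMIs. Its ratio after scaling was 0.183, with an exact binomial 95% interval of 0.0516 to 0.538 for counting error only, and sham 1 held most of its sham UMIs.

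The direction of calls among proteins that bind methylated CpG depended on scaling, as it did over all genes. After TMM scaling, of the 7 counted, 5 were tested, and 3 were lower (Zbtb4, Mbd1 and Mbd2), 0 higher and 2 not called (median log2 fold change -0.53 against 0.05 for all genes, of which 26.3% were called lower). Zbtb4, a zinc finger reader, had 43, 55, 38 and 56 UMIs, or 218 ± 43.8 CPM in sham and 106 ± 10.3 CPM in overloaded MuSCs (SD, n = 2 each), and the groups did not overlap (log2 fold change -1.03, SE 0.23, edgeR adjusted p 0.0017). Per tube, the log2 fold changes were -0.06 for Zbtb4, 0.22 for Mbd1 and 0.43 for Mbd2, with 0 of the 3 called. The other 2 tested readers were then called higher, as were 4481 of all 7228 genes tested. The number called higher was 2 with library sizes alone and 1 with upper-quartile factors, against 2694 and 2090 of all 7228 genes. It was 1 with thinned counts, against 1568 of the 6488 genes then tested. The calls of Mbd1 (-0.73, edgeR adjusted p 0.035) and Mbd2 (-0.53, edgeR adjusted p 0.047) were lost under DESeq2, with library sizes alone and without overloaded 2, which left 1 reader called lower.

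Genes around Tet oxidation, namely base excision factors and the Idh enzymes that supply a co-substrate, were counted next. Of 9 listed genes 8 were in the file and 6 were tested, with 4 higher and 0 lower, against 25.8% and 26.3% of all genes, and a median log2 fold change of 1.28. Idh1, Parp1, Polb and Xrcc1 passed the filter through the overloaded libraries alone, so the count and the median lean to the higher side by the choice of genes tested. Smug1 and Polb were tested and not called. Idh1, which makes the 2-oxoglutarate that Tet enzymes and Kdm6 demethylases use, had 3, 6, 40 and 60 UMIs (log2 fold change 2.48, SE 0.42, edgeR adjusted p 1.66e-04). Its mitochondrial relative Idh2 had 21, 24, 83 and 101 UMIs (1.07, SE 0.23, edgeR adjusted p 0.0013). Both are also enzymes of central metabolism. Of the repair factors, Xrcc1 had 4, 1, 22 and 23 UMIs (2.17, SE 0.55, edgeR adjusted p 0.0044) and Parp1 had 5, 7, 30 and 36 UMIs (1.48, SE 0.41, edgeR adjusted p 0.0073), and both work on other DNA lesions as well. Without sham 2 and without sham 1 the log2 fold change of Xrcc1 was 1.51 and 3.38, and the DESeq2 adjusted p of Parp1 was 0.124.

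**Figure D4:**
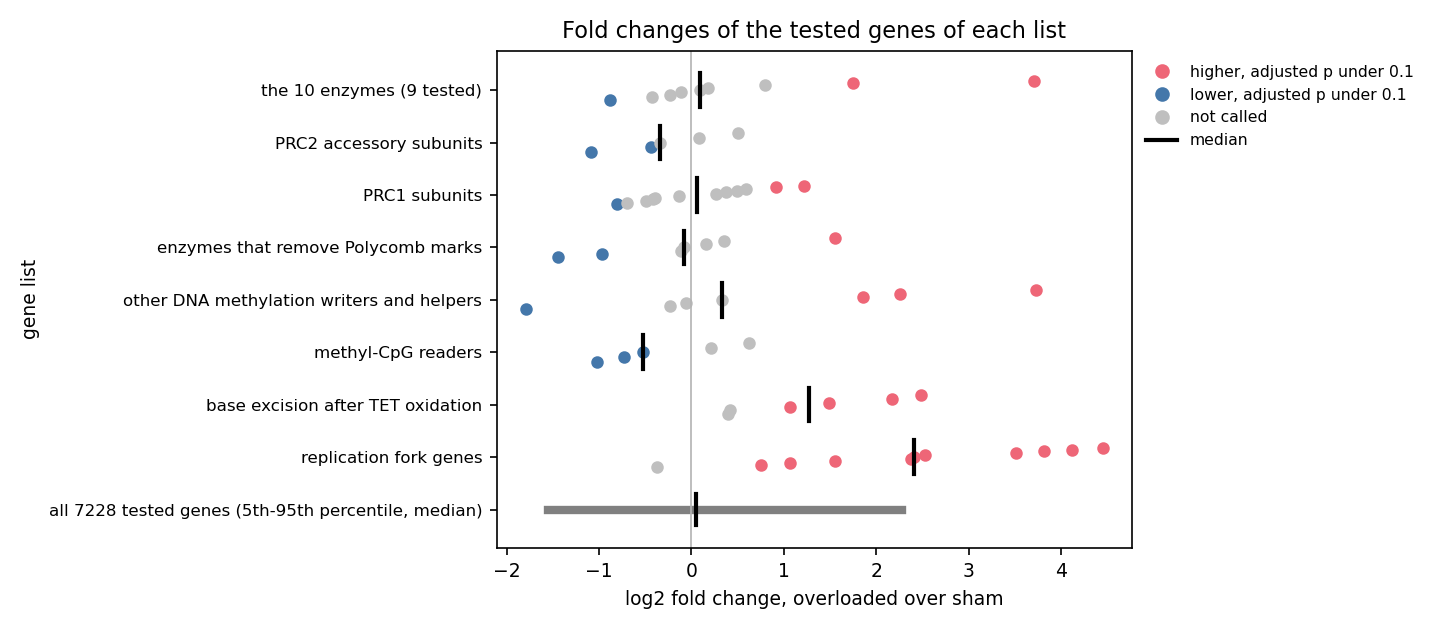
Log2 fold change, overloaded over sham (x axis), of each tested gene (points) in each list (y axis), red where higher and blue where lower at an adjusted p under 0.1 and grey where not called, with black lines at list medians; the grey bar spans the 5th to 95th percentile of all 7228 tested genes. Medians ran from -0.53 for methyl-CpG readers to 2.41 for replication fork genes, against 0.05 for all genes.

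Replication fork genes were counted beside Dnmt1 and Uhrf1, which act at the fork. Of 16 listed genes 11 were tested, with 10 higher and 0 lower, against 25.8% and 26.3% of all genes, and a median log2 fold change of 2.41. Of the 11, 7 passed the filter through the overloaded libraries alone, so that this count and median lean to the higher side by the choice of genes tested. Mcm2, a subunit of the replicative helicase, had 0, 2, 36 and 37 UMIs (log2 fold change 4.12, edgeR adjusted p 1.06e-04), and Mcm6, another, had 2, 1, 44 and 42 (3.81, edgeR adjusted p 4.09e-05). Rrm2, a ribonucleotide reductase subunit, had 5, 8, 130 and 162 UMIs (3.51, edgeR adjusted p 1.81e-07), and Tyms, which makes thymidylate, had 0, 1, 17 and 33 (4.46, edgeR adjusted p 2.65e-04). With so few sham UMIs these sizes are loose, and leaving out a sham library gave 3.12 to 7.94 for Mcm2 and 3.51 to 7.38 for Tyms. These 4 were named for the size of their change. At the other end of the list, Mcm4 had a log2 fold change of 0.76, Rrm1 of 1.06 and Mcm7 of 1.56, of which Mcm7 shares exonic bases with Cops6 on the opposite strand, and the values of Dnmt1 (1.75) and Uhrf1 (3.71) lay within the range of the list. Pcna, the sliding clamp to which Dnmt1 binds, was the exception among those tested, with 40, 34, 48 and 63 UMIs and a log2 fold change of -0.38 (SE 0.22, edgeR adjusted p 0.184). E2F-type letters were found in a window of 5 of the 14 fork genes that had one.

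Genes that are silent in somatic cells through DNA methylation or Polycomb were examined as readouts. Of 12 germline genes kept off by DNA methylation, 4 were in the file and none was high enough to be tested. The most abundant, Brdt, a testis bromodomain gene, had 4, 5, 7 and 9 UMIs, with a ratio after scaling of 0.912 (exact binomial 95% interval 0.379 to 2.34). Of 14 genes repressed by Polycomb, 8 were in the file and again none was tested. Cdkn2b, which encodes the cell cycle inhibitor p15, had 2, 0, 8 and 12 UMIs, with a ratio of 5.13 (1.25 to 45.3), and its neighbour Cdkn2a had 0, 1, 6 and 9, with a ratio of 7.69 (1.18 to 324). Of the other 6 in the file, 3 had more UMIs in the overloaded libraries, 2 had fewer and 1 the same, with at most 15 over all libraries. Both intervals cover counting error only, and the summed leukocyte markers were also higher in the overloaded libraries. Their part in these low counts was not tested.

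For the 2 members with the most UMIs, Tet2 and Suz12, the genes most like them were sought by the distance between log2 CPM profiles over the 4 libraries. For Tet2 the nearest of 1995 candidates were Taf1d (distance 0.057), Zfp207 (0.074) and Ccn2 (0.076). For Suz12 the nearest of 3559 candidates were Ndst1 (0.026), Pxdn (0.034) and Psme4 (0.036). With 4 libraries a profile is a coarse measure, and such neighbours are a description.

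Where the 10 genes share exonic bases with others in the mouse annotation, the partners were low. Suz12 shares them with Gm26563 on the opposite strand (18 UMIs over all libraries) and Ezh2 with Gm26625 (8 UMIs), while the opposite-strand partners of Eed, Dnmt3a and Tet2 had 0 UMIs. Of the same-strand genes that overlap Dnmt1, Eed, Tet1 and Tet3, none shares exonic bases with them. Ezh1 and Uhrf1 overlapped no other gene.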

How the data were processed

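CEL-Seq2 libraries of 100 sorted MuSCs each, 2 sham and 2 overloaded, were used as deposited. The authors extracted barcodes and UMIs with UMI-tools (version 1.0.0), aligned reads to GRCm38 with HISAT2 (version 2.1.0), assigned them with featureCounts (version 1.6.4), and deposited unnormalized counts of UMIs per gene. The annotation release and strand setting are not given in the sources used here. From these counts, genes were filtered by filterByExpr (minimum count 10, minimum total 15), scaled by TMM (factors 0.909, 0.908, 1.08 and 1.12) and tested with edgeR (version 4.0.16, R version 4.3.3) by glmQLFit and glmQLFTest on all 7228 genes kept, without a replicate block. Adjusted p-values are Benjamini-Hochberg, at the study's threshold of 0.1. The common biological coefficient of variation was 9.50%, and the prior count of fitted fold changes was 0.125. The test was checked on simulated counts, where it found 51.2% of 2-fold changes and 95.1% of 4-fold changes. A gene that was not called may thus still differ by 2-fold. The chi-square of the counts per degree of freedom was 1.31 between the sham libraries and 1.50 between the overloaded ones, above sampling noise, and 6.34 to 7.86 between groups.

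Members and lists were chosen with earlier results of these data known. Up to 4 genes were named per list, the called ones with the largest change, no overlap between groups and a mean of at least 10 UMIs, or the most counted gene where none was called, while Cbx2, Cbx8, Cdca7, Cdkn2a, Dnmt3b, Kdm6a, Mcm4, Mcm7, Pcna, Polb, Rrm1 and Smug1, and the Dnmt1 and Tet2 shares, were chosen after their values were seen. Likeness was the Euclidean distance of log2 CPM with a prior count of 2. Alternatives were other scalings, DESeq2 (version 1.42.0), limma-voom (limma version 3.58.1), other filters, an adjusted p of 0.05, a replicate block, thinning, and leaving out each library. The authors' comparisons by DESeq2 (version 1.22.2) were not used. Some genes of the lists are not reported here and were left out of the list counts and sums.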

Additional observations from a re-analysis of the deposited data

How the results depend on the processing

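Of 855 values recomputed over 16 other settings, 750 were held to be the same and 17 fold changes reversed. Of the rest, 35 fell short of the threshold, 8 newly passed it and 45 counts or shares moved. Counts were held to be the same within a fixed ratio, as with 2694 genes higher by library sizes alone against 1868. The group means of the Ezh2 share could not move by the rule used. Most counts of the germline and Polycomb-repressed lists, which had no tested gene, could not move either. Dnmt1 and Uhrf1 were called higher under every setting, and Dnmt3a lower under all but UMIs per tube, DESeq2 and leaving out overloaded 2. Scaling moved calls among the rest, while with thinned counts Dnmt1, Uhrf1 and Dnmt3a were again the only members called. The sham libraries held fewer UMIs, and most members had under 70 UMIs in a library. Whether deeper libraries would change the rest was not tested.

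Without scaling, per tube, 7 members were higher and 0 lower, and 4481 genes were higher and 331 lower. With DESeq2, 2 members were higher and 0 lower, and 762 genes were higher and 1049 lower. Leaving out each library in turn gave 2 to 3 members higher and 0 to 2 lower, 1360 to 1668 genes higher and 1489 to 1720 lower. The lowest count of members lower was without overloaded 2, and the highest, with Ezh2 added, without sham 1. The same step moved the Ezh2 share from 69.6% to 71.4% in sham and from 54.4% to 67.9% in overloaded MuSCs.

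Reversed log2 fold changes per tube were Ezh2 0.53, Suz12 0.85, Dnmt3a 0.067, Tet2 0.72, Rbbp7 0.52, Rnf2 0.15, Mbd1 0.22 and Mbd2 0.43, where all genes shifted upward. With library sizes alone Suz12 was 0.17 and Tet2 0.040. With offsets for abundance Ezh1 was -0.056, Tet2 0.19 and Rbbp7 0.12. Leaving out 1 library moved Ezh1 between -0.22 (without sham 1) and 0.63 (without sham 2), with -0.02 without overloaded 2, and Tet3 between -0.14 (without overloaded 1) and 0.38 (without overloaded 2), with -0.031 without sham 1, all uncalled. The cause was not tested.

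Replicate numbers are shared between the groups, and the labels do not say whether they pair the libraries. Same-numbered libraries did not deviate together (correlation -0.034 over 7228 genes). Counting noise is a large part of such deviations, so this value cannot decide whether same-numbered libraries were paired. With the replicate number as a block, 3 members were higher, Eed added (log2 fold change 0.75, edgeR adjusted p 0.098), and 1 lower, and 1806 genes were higher and 1864 lower.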
